A study of Mus musculus with 48 samples.

Results

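Satellite peaks are sites of open chromatin that most progenitor libraries held and few monocyte libraries held, and that lie next to a site held in both stages. The rule found 268 of them among 34330 merged regions of mouse chromosomes 1 to 19 (mm9). Each satellite was held by at least 12 of 24 progenitor lists and at most 4 of 18 monocyte lists, after each list was reduced to its 10000 highest peaks. The nearest edge of another region, held by at least 12 progenitor and 9 monocyte lists, lay within 500 bp of it and is called its neighbour here. Presence in the progenitor and monocyte lists chose the satellites, so their difference between stages is a description and was not tested as a result.

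The libraries came from 24 clones of ER-Hoxb8 cells, mouse bone marrow cells that an oestrogen-dependent Hoxb8 protein holds at an immature myeloid stage. Each clone gave 1 library of progenitors, labelled as granulocyte and monocyte progenitor (GMP) cells and named Plus, and 1 of monocytic cells, named Minus. The labels give one culture medium for both stages, RPMI with serum, antibiotics and stem cell factor, and do not say how the monocytic cells were obtained or at what time. All cells carry the ER-Hoxb8 construct, there is no group without it, and each library stands for 1 clone at 1 stage. The labelled cell types were not checked against marker genes, because no annotation of the mm9 build was used here.

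ATAC-seq inserts sequencing adapters into DNA that is not covered by nucleosomes, so its peaks mark promoters, enhancers and other sites where proteins keep the DNA accessible. Such sites often come in groups, since a regulatory element can hold several factors on neighbouring stretches of DNA that are separated by a nucleosome. When myeloid progenitors mature, many accessible sites close and others open, while promoters of widely used genes mostly stay accessible.

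The lists differ in ways that bear on close pairs of peaks. Progenitor lists held 11114 to 136322 peaks and the 18 monocyte lists used by the rule 10966 to 38786, and the lowest peak kept held 12 to 604 tags in progenitors and 9 to 74 in monocytes. Peaks have a typical width in each list, 86 to 130 bp in progenitors (median over lists 97 bp) and 120 to 182 bp in monocytes (median 143 bp), and the monocyte peaks were wider in 24 of 24 clones. Adjacent peaks of a progenitor list rarely lay closer than 2 peak widths, in 0.0926% to 0.252% of cases. In the monocyte lists used, whose widths are larger, this was 0.0451% to 0.314%. The closest 1% of adjacent peaks lay under 224 to 313 bp apart in progenitor lists and under 307 to 512 bp in these monocyte lists. The progenitor list of clone 11 stands apart, with 11114 peaks, a width of 130 bp and 16 tags at the lowest peak kept.

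Satellites lay close to their neighbours. The distance between region centres was 208 bp at the least, 354.75 bp at the median and 905.5 bp at the most, with quartiles of 297 and 428 bp. By distance, 70 satellites lay at 200 to under 300 bp, 107 at 300 to under 400 bp, 57 at 400 to under 500 bp and 34 farther out. The edge-to-edge gap had a median of 97 bp and reached 465 bp.

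The 268 satellites belonged to 258 neighbours, of which 10 had 2 satellites and 9 had one on each side. Satellites stood at the higher coordinate of the pair in 157 cases and at the lower in 111. Satellite regions were narrower, with a median width of 172.5 bp against 306.5 bp for their neighbours and 282 bp for the other shared regions. A merged region widens with the number and the width of the peaks it joins, and neighbours were joined from both stages.

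For comparison, 776 pairs of regions within 500 bp were held by at least 12 progenitor lists each. Satellite pairs made up 34.5% of them, 372 pairs were shared by both stages on both sides, and 136 were neither. Pairs shared by both stages lay farther apart, at a median of 490 bp and a minimum of 276.5 bp. A distance of 2 peak widths came to 194 bp in the median progenitor list and 286 bp in the median monocyte list, and the closest satellite lay at 208 bp. Merged regions do not overlap, so the distance between centres also depends on region width, which was smaller for satellites. The parts of width and spacing in the difference between satellite and shared pairs were not tested.

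**Figure D1:**
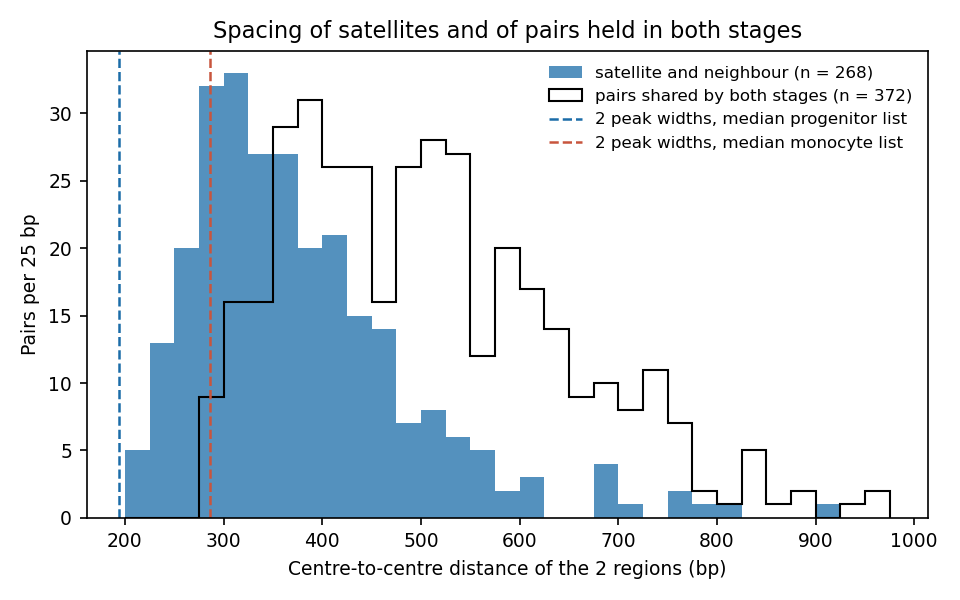
Number of pairs per 25 bp (vertical axis) against the distance between the centres of the 2 regions in bp (horizontal axis), for 268 satellite pairs (filled) and 372 pairs held in both stages (outline). Dashed lines give 2 peak widths in the median progenitor list (194 bp) and the median monocyte list used (286 bp); satellites begin at 208 bp and shared pairs at 276.5 bp.

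The presence of a shared region beside a progenitor-biased one was common, and the reverse was not. Of 863 regions held by at least 12 progenitor and at most 4 monocyte lists, 31.1% had a shared region within 500 bp and 595 had none. With the stages exchanged, 825 regions were held by at least 9 monocyte and at most 5 progenitor lists, and 29 of them (3.52%) had a shared region that close. When every list was thinned to a spacing of at least 319 bp, the largest minimum spacing among the 42 lists used, the shares were 23.4% and 4.08%. At 364 bp, which is 2 widths of the widest list used, they were 17.5% and 4.86%.

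With all lists thinned to 364 bp the rule chose 167 regions, and these overlapped 120 of the 268 satellites. The shares of the stages were closer at this spacing than in the lists as deposited, and the progenitor share was the higher in both. Peak widths still differed between the stages, and the part of spacing was not tested. The thinning to 364 bp and the exchange of stages were added after the data were seen.

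**Figure D2:**
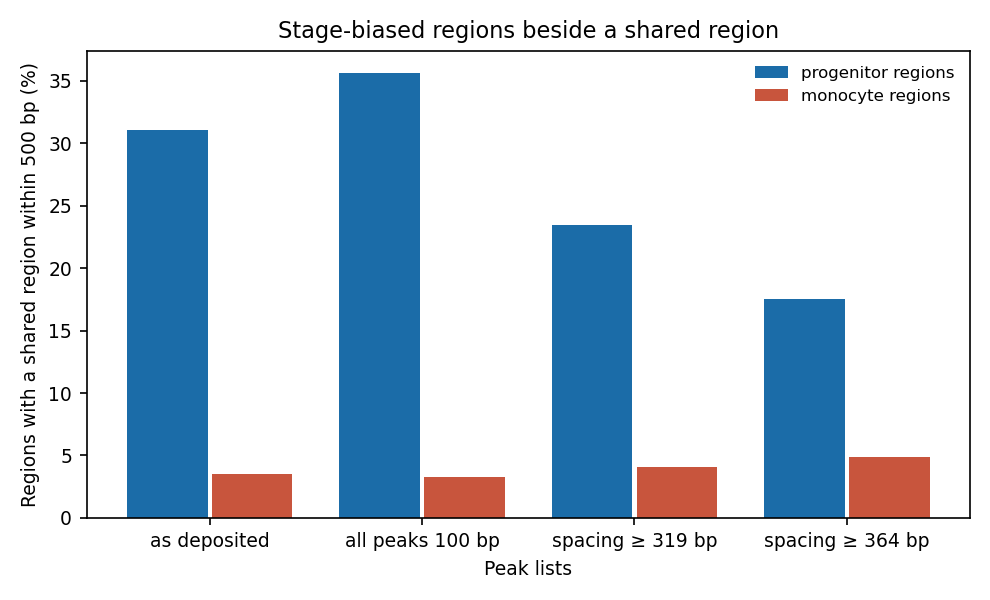
Share of stage-biased regions with a shared region within 500 bp (vertical axis, percent), for progenitor regions and for monocyte regions, in the lists as deposited, with every peak set to 100 bp, and with lists thinned to a spacing of at least 319 or 364 bp (horizontal axis). The progenitor share fell from 31.1% in the lists as deposited to 17.5% at 364 bp, and the monocyte share lay between 3.31% and 4.86%.

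Most satellites had a peak in at least 1 full monocyte list. In the full deposited lists, 72 satellites had a peak in none of the 24 monocyte lists, 138 in 1 to 4 and 58 in at least 5, with a median of 2 lists and a maximum of 17. The same satellites had a peak in a median of 23 of the 24 deposited progenitor lists, and in at least 12. Within the reduced lists, 12 satellites were held by all 24 progenitor lists, 98 by at least 20, and 113 by no monocyte list.

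The 595 progenitor-biased regions that stand alone gave opposite comparisons in the earlier and the later clones. In the deposited monocyte lists of clones 1 to 13, 64.7% to 93.1% of them had a peak, against 4.10% to 30.6% of the satellites, and satellites had the lower share in all 13. In the 5 later lists used, 1.68% to 8.74% of them had a peak, against 7.09% to 20.5% of the satellites, and satellites had the higher share in all 5. For some of the satellites held there the neighbour had no separate peak, as in clone 20, where both peaks were reported for 31 of 55. The lowest peak kept held a median of 45.0 tags in the lists of clones 1 to 13 and 13.0 in the later ones. Among the earlier lists, those of clones 3 and 10 held 12.0 and 13.0 tags there. These lists had a peak at 64.7% and 74.96% of the stand-alone regions, against 4.85% and 17.2% of the satellites. Of the 7485 other shared regions, the lists of clones 1 to 13 held 96.7% to 99.9% and the 5 later ones 54.9% to 83.8%. The part of depth was not tested. Both kinds of region were chosen by presence in these same 18 lists, so their comparison is a description. In counts, the 18 lists held 11 to 82 satellites, with a median of 32. Fewer cells with an open site and a less open site in each cell cannot be told apart in such libraries, and a site missing from a list is only a site at which no peak was reported.

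The lists with the widest peaks of each stage held the fewest satellites, without a strict order in between. Among progenitor lists the deposited count ran from 79 in clone 11, whose peaks are 130 bp wide, to 265 in clone 3, at 86 bp. The other 23 progenitor lists held 210 to 265. The progenitor lists of clones 21 and 25 also had few tags at the lowest peak kept, 18 and 12, with peaks of 110 and 96 bp, and held 210 and 220. They are longer, at 33185 and 22332 peaks against 11114. Reduced to 10000 peaks each, they held 124 and 161 satellites and the list of clone 11 held 75. The reduced list of clone 12, at 110 bp and with 260 tags at the lowest peak kept, held 130. The rule used presence in these reduced lists, and the parts of width, depth and list length were not tested. Among monocyte lists, that of clone 12, at 120 bp, held 82 satellites and that of clone 1, at 182 bp, held 11. Lists of like width differed, with 23 and 55 satellites in clones 8 and 20 at 138 bp, and clone 5 at 130 bp held 32 while clone 10 at 152 bp held 46.

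Most satellites lay beyond 2 peak widths of their neighbour in the monocyte lists used, except those of clones 1 and 3. Between 123 and 255 of the satellites lay farther from their neighbour than 2 peak widths of the monocyte list in question, and the lists held 7.32% to 32.2% of those (median 13.1%). Within 2 widths lay 13 to 145 satellites per list, of which 0 to 10 were held. Progenitor lists other than that of clone 11 held at least 78.7% of the satellites that lay beyond 2 of their own widths, and that of clone 11 held 29.9%. The rule chose satellites by presence in these same lists after reduction, so the contrast of these shares between stages is a description.

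**Figure D3:**
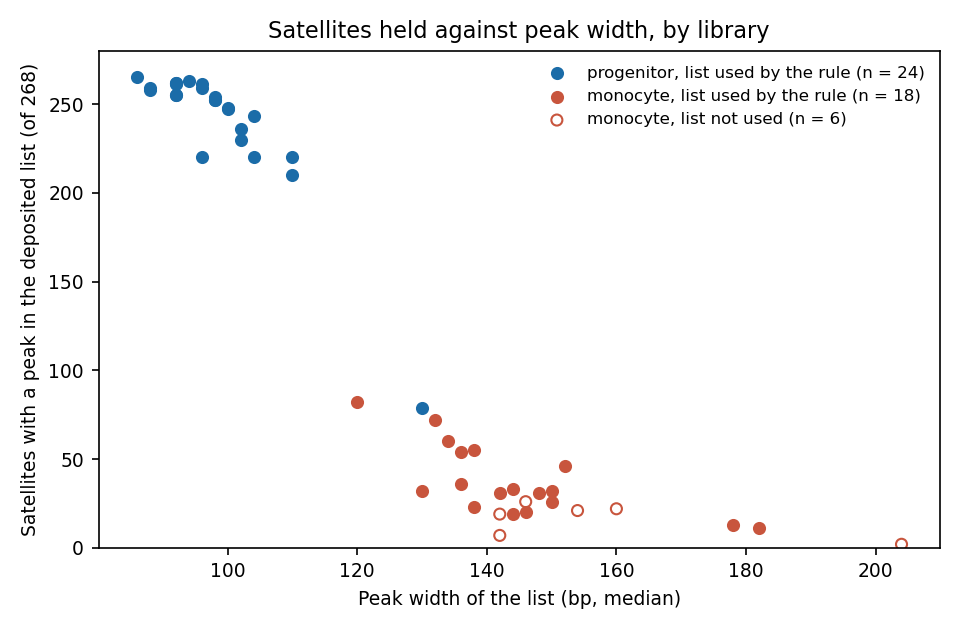
Satellites with a peak in the deposited list, of 268 (vertical axis), against the median peak width of the list in bp (horizontal axis), 1 point per library. Progenitor lists hold 210 to 265 satellites except that of clone 11 (79, at 130 bp), and the 18 monocyte lists used hold 11 to 82.

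The relation to peak width was examined within progenitors alone, with a test added after the data were seen. The rule did not use the split by width, but it used presence in these same lists. The 12 progenitor lists with peaks of up to 96 bp were set against the 12 with peaks of at least 98 bp, over regions held by at least 5 and lacked by at least 5 lists. Fisher's exact test with Benjamini-Hochberg adjustment called 0 of 4083 regions (0%) more often held by the narrower lists, and 0 of the 170 satellites tested; the smallest adjusted p was 0.275. At an unadjusted p under 0.05, 23 satellites (13.5%) and 112 regions (2.74%) were more often held by the narrower lists, and 1 satellite and 120 regions by the wider ones. These shares are not like for like, because every satellite is held by at least 12 lists and only 1900 of the 4083 regions are.

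Satellites share the same lists, so their counts are not independent of each other. Of the 170 satellites, 146 were held more often by the narrower lists, with a median difference of 25 percentage points. The median was 0 points over all regions tested and 8.33 points over the 1730 other regions held by at least 12 lists. Within the lists of naming code CRb1 (7 narrower and 11 wider) the test again called 0 of 3652 regions and 0 of 155 satellites, with 29 satellites and 165 regions at an unadjusted p under 0.05. The median differences there were 36.4 points for satellites and -1.30 points for all regions. Over the lists of all codes, the lowest peak kept held a median of 248 tags in the 12 narrower lists and 216 in the 12 wider ones. Within CRb1 it held 200 to 256 tags in the 7 narrower lists and 16 to 414 in the 11 wider ones. The part of depth in these differences was not tested.

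In progenitors most satellites were lower than their neighbours. Height here is the first of the authors' 2 scores, which rises in even steps within a list and is given as tags by reading 1 step as 1 tag, and the comparison is made within a list. The median over satellites was 49.5% of the neighbour (log2 ratio -1.01), with single satellites between 18.8% and 131%. In 12 the satellite was the higher peak, in 131 it exceeded 0.5 of the neighbour's height, and in 15 it stayed under 0.25.

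Progenitor lists gave similar proportions. The median per list was 43.0% to 52.1% in 23 lists and 63.4% in that of clone 11. For one satellite, the SD of the log2 ratio across progenitor lists had a median of 0.31 over the 264 satellites with a ratio in at least 12 lists, against 0.32 over 371 pairs shared by both stages. In those shared pairs the lower peak stood at a median of 67.2% of the higher one in progenitors and 61.2% in monocytes.

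Monocyte lists gave a ratio for 167 satellites, those high enough to be reported there, and the median was 46.0% (log2 ratio -1.12). Most earlier lists lay apart from the later ones, but clone 3 lay within the range of the later lists. In clones 1 to 13 the medians were 20.1% to 29.97%, apart from clone 3 at 60.5% and clone 10 at 50.6%, and in the 5 later lists used (clones 16, 18, 20, 21 and 25) they were 59.8% to 90.1%.

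The medians of the 2 lists of a clone cover different satellites, in clone 1 235 in progenitors and 8 in monocytes. By these medians, satellites were relatively lower in the monocyte list than in the progenitor list in 11 of 18 clones. These were 11 of the 13 clones 1 to 13 and 0 of the 5 later clones. The difference in depth between earlier and later monocyte lists moved with this split, and in clones 3 and 10 the lowest peak kept held 12.0 and 13.0 tags. In the 5 later lists the median satellite held 12.0 to 27.1 tags and the median neighbour 17.0 to 48.0, beside 9.00 to 19.0 tags at the lowest peak kept. The part of depth in the split was not tested.

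The same satellites can be followed where both lists of a clone report both peaks. In clone 12 this held for 79 satellites, whose median log2 ratio was -0.78 in progenitors and -2.13 in monocytes, and 68 of them were lower in monocytes. In clone 13, 60 of 72 were lower, at -1.18 and -1.91, and in clone 7, 56 of 59, at -0.83 and -1.80. In 7 of the 18 clones only a minority was lower: 4 of 10 in clone 3, 16 of 38 in clone 10, and all 5 later clones. Among these, clone 20 had 6 of 31 lower, at -1.25 in progenitors and -0.15 in monocytes, and clone 16 had 2 of 14, at -1.47 and -0.35. The satellites compared are those still visible in monocytes.

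**Figure D4:**
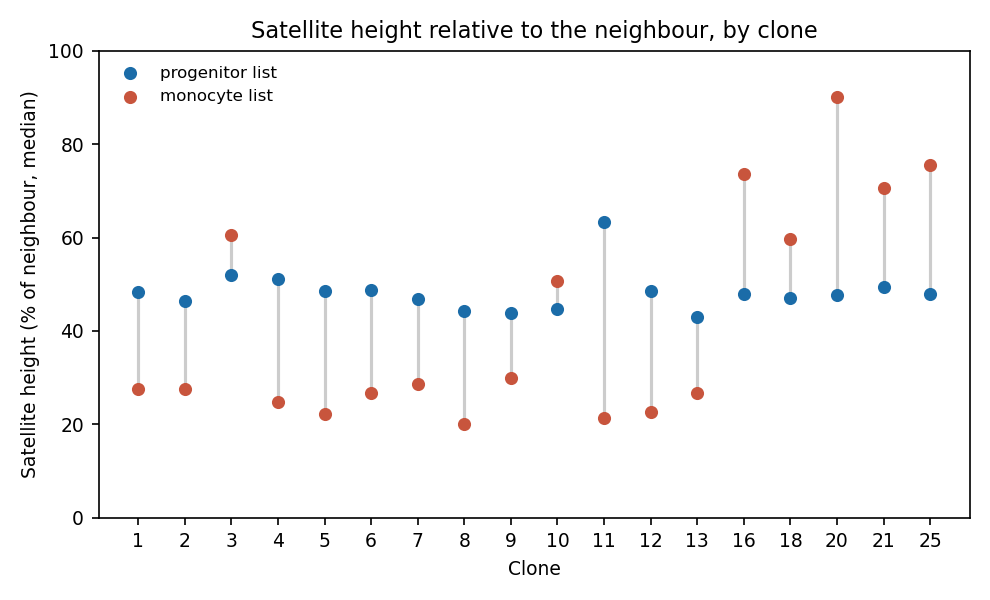
Median satellite height as a percentage of the neighbour in the same list (vertical axis) for the progenitor and the monocyte list of each of the 18 clones with both lists used (horizontal axis, clone number). Progenitor points lie at 43.0% to 52.1% except clone 11 (63.4%); monocyte points lie under them in 11 of the 13 clones 1 to 13 and above them in the 5 later clones.

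Closer satellites were in fewer monocyte lists. Those in no deposited monocyte list had a median centre distance of 314 bp, those in 1 to 4 lists 349 bp and those in at least 5 lists 424.5 bp. At 200 to under 300 bp, 32 of 70 were in no monocyte list and at 300 to under 400 bp 33 of 107, against 3 of 57 at 400 to under 500 bp and 4 of the 34 farther out. The median height in progenitors was 55.8%, 50.4%, 41.8% and 39.8% of the neighbour in these same bins. Grouped by monocyte lists instead, the order of heights was the reverse. The median was 46.4% for satellites in no deposited monocyte list, 48.9% for those in 1 to 4 and 56.9% for those in at least 5. Peak spacing is limited in the lists, and its part in this order was not tested.

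**Figure D5:**
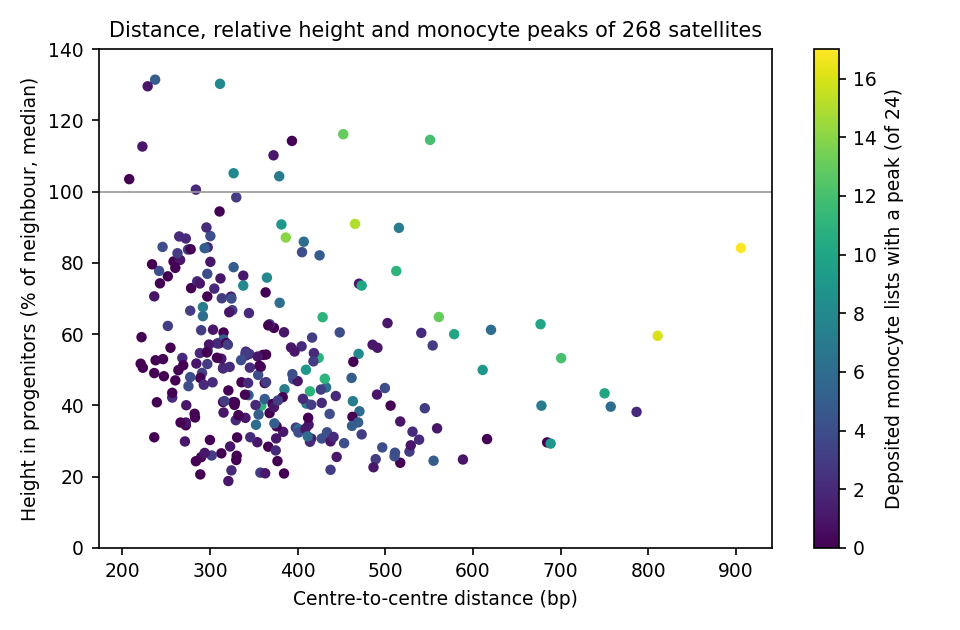
Median height in progenitors as a percentage of the neighbour (vertical axis) against centre-to-centre distance in bp (horizontal axis), 1 point per satellite (268), coloured by the number of the 24 deposited monocyte lists with a peak. The line marks 100%; 12 satellites lie above it, and satellites beyond 400 bp are in a median of 4 monocyte lists against 1 below that distance.

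Single satellites show the range. The one held by all 24 reduced progenitor lists and by no monocyte list lay on chromosome 8 at 72273825 to 72273991, 17 bp from a neighbour at 72273505 to 72273807. In progenitors it held 13.0 to 768 tags (median 340) and the neighbour 25 to 1221 (median 447), or 44.8% to 182% of the neighbour with a median of 76.2%. It exceeded its neighbour in 3 of 24 lists, those of clones 11, 12 and 21. In monocytes the neighbour was present in 19 of 24 deposited lists, with 12 to 293 tags (median 140), and the satellite in none.

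A second, on chromosome 17 at 74694135 to 74694283, was separated by 7 bp from a wide neighbour (624 bp) and was also in no monocyte list. It held 22 to 1276 tags (median 448) in 23 progenitor lists, against 18.0 to 970 (median 353) for the neighbour in 24. Its median height was 114% of the neighbour, and it was the higher peak in 15 of 23 lists. The neighbour alone was reported in 22 monocyte lists, with 15.0 to 248 tags.

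The 4 other satellites named for absence from every monocyte list were each in 23 progenitor lists. The one on chromosome 3 at 108003735 to 108003892 had a median height of 72.9% of its neighbour, and that on chromosome 11 at 6344058 to 6344223 one of 61.8%. A proportion of 34.1% was found at 80755913 to 80756046 on chromosome 10, and one of 30.5% at 100446365 to 100446526 on chromosome 15. The last lay 294 bp from its neighbour edge to edge and 616 bp centre to centre, farther than 2 widths of any monocyte list used (240 to 364 bp), and its neighbour was in 23 monocyte lists with a median of 125 tags.

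The satellite with the highest proportion was on chromosome 5 at 147072778 to 147072959, at 131% of its neighbour and 237.5 bp from it. It was also among the tallest, with 114 to 32134 tags (median 9807) in 23 progenitor lists against 135 to 24790 (median 6716) for the neighbour. In monocytes each of the 24 deposited lists had a peak at only 1 of the 2 sites, over the neighbour in 19 lists and over the satellite in 5. The distance of the pair is below 2 peak widths in all 18 monocyte lists used, whose lowest value is 240 bp. Both sites of this pair were thus never reported apart in monocytes, and a peak at one of them always was.

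A different picture was found on chromosome 13 at 112587329 to 112587470, 551 bp from its neighbour. This satellite was slightly higher than its neighbour in progenitors (median 115%, range 90.9% to 151%, 23 lists, higher in 19) and lower in all 12 monocyte lists that reported both (median 56.9%, range 31.0% to 70%). The ranges of the stages did not overlap, and all 12 monocyte lists were of clones 1 to 13. This satellite and those that follow here were picked for a high progenitor ratio, which favours a lower ratio in monocytes. How many other satellites have ranges that do not overlap was not counted. On chromosome 16 at 91366910 to 91367268 the median was 116% in 24 progenitor lists (43.8% to 200%) and 47.6% in 12 monocyte lists (33.1% to 120%), with overlapping ranges. On chromosome 12 at 55797464 to 55797569 it was 130% in 21 progenitor lists and 51.5% in 7 monocyte lists, again overlapping. On chromosome 9 at 110207873 to 110207993, 8 bp from its neighbour, it was 130% in 21 progenitor lists, and 1 monocyte list reported a peak.

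At the other end, the lowest satellite relative to its neighbour was on chromosome 1 at 90173766 to 90173987. It held 17.0 to 1713 tags (median 691) in 22 progenitor lists beside a neighbour of 141 to 8293 (median 3258), or 12.1% to 31.5% with a median of 18.8%. The neighbour was in 22 monocyte lists with a median of 703 tags, and a peak over the satellite was in 1. Next in order came those at 138105619 to 138105765 on chromosome 3 (20.6%), at 36924982 to 36925127 on chromosome 5 (20.9%) and at 37318137 to 37318385 on chromosome 3 (20.9%).

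The rule required neighbours to be held in both stages. Of the 258, 108 (41.9%) were held by every one of the 42 reduced lists, as were 1843 of the 7485 other shared regions (24.6%). The centre of the monocyte peaks at the neighbour lay a median of 6 bp nearer the satellite than the centre of the progenitor peaks, nearer for 159 satellites and farther for 107. Shifts of over 50 bp were toward the satellite in 36 cases and away in 15. The median size of the shift, 24.75 bp, was close to the 25.5 bp at other shared regions. The second of the authors' scores, whose meaning is not given in the sources used here, had a lower median at satellites than at neighbours in 10 of 24 progenitor and 18 of 18 monocyte lists.

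The stage comparison across all regions gives the background of the rule. A two-sided Fisher's exact test with Benjamini-Hochberg adjustment at 0.05 called 13.4% of 13433 regions higher in progenitors, and 259 of the 268 satellites. The rule selected on this contrast, so nothing is read from the count of satellites.

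The submitters' names of progenitor lists carry a code, whose meaning is not given, and this allowed a contrast that the rule did not use. Ratios of height within a list were compared between the 4 lists of code CRb3 and the 18 of code CRb1 with limma over 753 pairs, and 0 pairs (0%) and 0 of the 253 satellite pairs tested were called at an adjusted p of 0.05. The smallest adjusted p was 0.995, and 11 satellite pairs and 23 pairs in all had an unadjusted p under 0.05. The median difference of satellite pairs was 0.02 on the log2 scale, CRb3 minus CRb1, and 0.02 over all pairs. With ranks in place of heights, limma called 0 pairs, and 53 of 253 satellite pairs and 78 of 753 pairs in all had an unadjusted p under 0.05.

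Whether a clone's monocytes kept the proportions of that clone's progenitors was asked by correlating the 2 ratios across at least 10 clones. The Pearson permutation test (100000 resamples, two-sided, Benjamini-Hochberg adjusted) called 3 of 371 pairs (0.809%), none of them satellite pairs. Only 13 satellite pairs had ratios in enough clones; 0 of these had an unadjusted p under 0.05, the smallest adjusted p was 0.729, and 7 correlations were positive. Spearman's coefficient called 1 pair and 0 satellite pairs, with 1 satellite pair at an unadjusted p under 0.05. In clones 1 to 13 only, the Pearson permutation test called 0 of 301 pairs. There 2 of the 9 satellite pairs tested and 28 pairs in all had an unadjusted p under 0.05. The smallest adjusted p in that setting, 0.108, was that of a satellite pair. Most satellites lack enough monocyte ratios for this question.

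The 6 monocyte lists with fewer than 10000 peaks (clones 15, 17, 19, 22, 23 and 24), which the rule did not use, held few satellites. They had 231 to 7378 peaks and held 2 to 26 satellites and 10 to 194 neighbours, while a single peak lay over both regions for 2 to 16 pairs. Progenitor lists of the same clones, reduced to the same number of peaks, held 2 to 115 satellites and 23 to 244 neighbours. Per 100 neighbours held, satellites were fewer in the monocyte list in 4 of 6 clones. The progenitor lists of these clones were among those that chose the satellites, so this comparison is a description. In clone 15, for example, these were 10.2 in monocytes and 47.1 in progenitors. The exceptions were clones 19 (15.6 and 14.5) and 22 (20 and 8.70), whose monocyte lists held the fewest peaks over neighbours, 45 and 10.

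Satellites were found on all 19 chromosomes, with 3.46 per 100 shared regions. The lowest figure was 1.55 on chromosome 14 (4 satellites) and the highest 5.51 on chromosome 12 (15 satellites); these were not tested.

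The thresholds of the rule cut through a continuous range. At the limits, 25 satellites were held by exactly 12 progenitor lists and 25 by exactly 4 monocyte lists. Just outside, 22 regions beside a shared region were held by 11 progenitor lists and 22 by 5 monocyte lists. The widest gaps inside were 465, 457 and 441 bp and the narrowest outside were 526, 557 and 584 bp. The satellite with the widest gap, at 6373360 to 6373499 on chromosome 10, had peaks in 15 progenitor and 0 monocyte lists after reduction. The nearest excluded region, at 107885849 to 107886031 on chromosome 9, had them in 18 and 2.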

How the data were processed

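Chromatin accessibility was measured by ATAC-seq (Buenrostro et al. protocol, per the labels) in 24 clones at 2 stages. The deposited files are peak lists with 2 scores per peak, both the authors' and without a header; BWA and mm9 are named in the submitters' processing notes. No source names the peak caller, its minimum spacing, the read filters and any transposase shift (not given in the sources used here), and depth is known only through the score ladder (values below 40 steps, tolerance 0.1 step).

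Lists with at least 10000 peaks (42) were cut to the 10000 of highest first score and merged where peaks overlapped by 1 bp. A height ratio came from peaks that overlap one region of a pair and not the other. Fisher's exact test was run in scipy 1.17.1, the permutation test in numpy 2.4.6 and the comparison of naming codes in limma 3.58.1. These tests were also run on simulated data. Same-numbered libraries come from one clone, per the series design, so the clone number pairs them. P-values measure the spread between libraries, which may be technical. Regions named are the 6 most widely held satellites in no deposited monocyte list, the 6 highest and 4 lowest by progenitor ratio, and those beside the limits of the rule. Members, lists and rules were chosen with earlier results of these data known. Alternatives were list length, ranking, width, spacing, neighbour distance and subsets of libraries. Gene names, gene lists and motifs were not used here, since no mm9 reference was at hand.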

Additional observations from a re-analysis of the deposited data

Results flagged for a closer look

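Satellites and stand-alone progenitor regions were set side by side in each monocyte list, as the share of each with a peak. The share of satellites was lower in every list of clones 1 to 13, by a median difference of -66.9 percentage points (satellites minus stand-alone regions, -79.4 to -55.8). It was higher in every one of the 5 later lists used, by a median of 4.68 points (1.54 to 11.8). The opposite directions drew attention to this result. The rule used presence in these same lists to choose both kinds of region, so the comparison is a description. A peak that also touched the neighbour was not counted for a satellite, while any overlapping peak counted for a stand-alone region. The later lists also held fewer of the other shared regions, 54.9% to 83.8% against 96.7% to 99.9%. The difference between earlier and later clones was not tested. In the later lists a satellite was often held without a separate peak at its neighbour. Both peaks were reported for 19 of 33 satellites held in clone 16, 14 of 19 in clone 18, 31 of 55 in clone 20, 23 of 31 in clone 21 and 20 of 32 in clone 25. Among earlier lists it was 82 of 82 in clone 12, 72 of 72 in clone 13 and 8 of 11 in clone 1.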

How the results depend on the processing

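The number of satellites was 53 with lists of 5000 peaks (29 of the 268 overlapped), 975 with 20000 (198 overlapped) and 167 with lists thinned to 364 bp (120 overlapped); under the 10 other settings it was 191 to 368. Ranking by the second score gave 191, which overlapped 90 of the 268. The shorter and longer lists also changed the number of monocyte lists that could enter, to 21 and 12. The median spacing was 335 bp with peaks set to 100 bp, 392.75 bp thinned to 319 bp, 421 bp thinned to 364 bp, 340.5 bp both with neighbours within 250 bp and in clones 1 to 13, 345.5 bp without the monocyte lists of clones 16, 20 and 21, and 342 bp without the 10 lists under 20 tags, which include the progenitor list of clone 11. The last 2 settings and the thinning to 364 bp were chosen after seeing the data. The progenitor log2 height ratio was -0.55 with 5000 peaks, -1.33 with 20000, -1.15 thinned to 319 bp and -1.17 thinned to 364 bp. The monocyte ratio, -1.12 by the rule, was -1.21 to -0.82 under the 13 settings. Each of its moves was smaller than the SD of the medians of the 18 monocyte lists, a wide measure because most earlier clones lie apart from the later ones. The cause of these moves was not tested. With the clone as a replicate block (exact sign test), 201 of 268 satellites and 6.47% of regions were called by stage, against 259 and 13.4% without it. Leaving out each CRb3 library in turn left 0 to 0 satellites called by naming code. Ranks near the lower end of the thinnest lists rest on 9 to 19 tags, which limits both presence and ratio there.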
